A study of Sus scrofa with 96 samples.

Results

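Synovium from 12 REPAIR knees was compared with synovium from 11 ACLT knees, 52 weeks after surgery in Yucatan minipigs. These 23 RNA-seq libraries were chosen by their labels from the 96 libraries of the series. Both groups had the anterior cruciate ligament (ACL) transected. ACLT knees had no further surgery, and in REPAIR knees the cut ligament was repaired with an extracellular matrix scaffold soaked in the animal's own blood. Each library came from 1 knee. Knee ACLT 12 was left out because it is not in the study's sample list. RECON knees (ligament reconstruction with an allograft tendon) and CON knees (the intact contralateral knee of operated animals, without sham surgery) serve below only to place the 2 groups.

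Synovium is the soft tissue that lines the joint. Its lining layer of macrophages and fibroblasts makes the lubricants of the joint fluid and clears debris, and the layer beneath it holds vessels, fat and immune cells. After ligament injury the tissue can stay inflamed or become fibrotic, and it signals to cartilage through the joint fluid. Leaving the ligament cut or repairing it can set a different mechanical setting for that tissue. The contrast measured here is between the whole procedures, and repair also adds bone tunnels, sutures, the scaffold and blood. Mechanics cannot be told apart from these. In whole tissue, fewer cells of a type and less RNA per cell cannot be told apart. The files identify transcripts by Ensembl identifiers that no table used here pairs with genes, so transcripts are described by identifier, length and level, and gene pathways and cell type markers were not analysed here.

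The synovium libraries labelled REPAIR 7 and CON 11 went against their labels. Among 19416 transcripts expressed in both tissues, 51 had levels that correlated between the cartilage and synovium of the same knee at r of at least 0.7 over 46 knees, leaving out REPAIR 7 and CON 11, and these were used to match each synovium library to its own knee. Since the 51 were selected on the 46 knees, their own matches are a description. Own cartilage was the best match for 41 of the 46 and the second best for the other 5, with the lowest own correlation at 0.59. REPAIR 2 synovium matched RECON 11 cartilage (0.75) above its own (0.69), so correlations this high also occurred between different animals. The synovium library labelled REPAIR 7 correlated with REPAIR 7 cartilage at r = -0.13, rank 29 of 48, and best with the cartilage of REPAIR 1 (0.79) and CON 11 (0.70), which the study's list gives as the knees of 1 other animal. The synovium library labelled CON 11 correlated with its own cartilage at r = -0.23, rank 34, and best with REPAIR 7 (0.83) and CON 9 (0.71) cartilage, the knees of the animal listed for REPAIR 7. Before matching, each transcript was centred and scaled within each tissue by its mean and SD over the 46 knees. Correlations are over the 51 transcripts and carry no test.

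**Figure D1:**
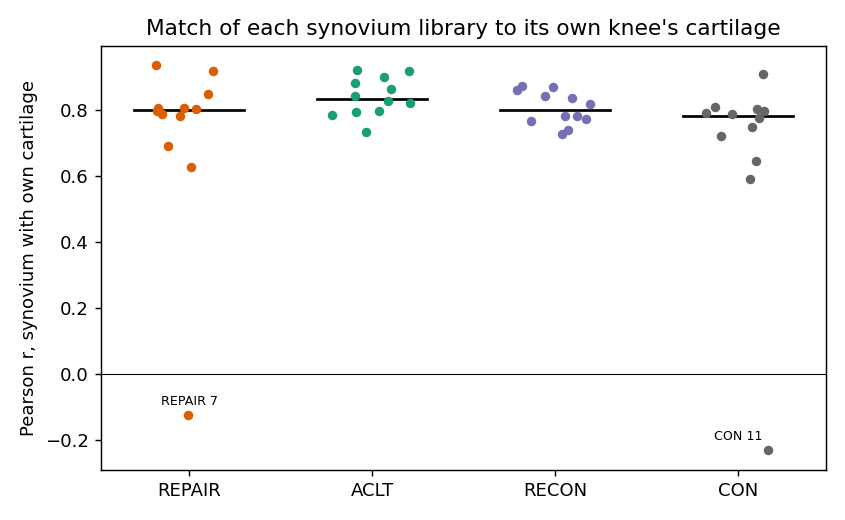
Pearson correlation (vertical axis) of each of the 48 synovium libraries with the cartilage library of the same knee, by group (horizontal axis). Levels of the 51 transcripts were centred and scaled within each tissue, and bars mark group medians. REPAIR 7 (-0.13) and CON 11 (-0.23) lie below 0 and the other 46 at 0.59 or above.

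Transcript ENSSSCT00000092050.1 (1812 bases) showed the same 2 libraries. Its level in CPM (the count scaled to the library's total) ran from 41.9 to 327 in 11 CON libraries, with a median of 200, and was 4.68 in the library labelled CON 11. In 11 REPAIR libraries it ran from 1.62 to 22.4 CPM with a median of 4.41, and it was 235 CPM in the library labelled REPAIR 7. In ACLT it ran from 0 to 21.2 CPM with a median of 10.4. The fitted log2 fold change of REPAIR over ACLT was 1.33 (SE 0.84) with all 23 libraries and -0.47 without the library labelled REPAIR 7, so 1 library set its sign. ENSSSCT00000018798.5 (2932 bases), which was higher in operated than in intact synovium, ran from 17.7 to 44.9 CPM in REPAIR, from 19.5 to 52.0 in ACLT and from 10.2 to 27.9 in CON without CON 11. Its lowest REPAIR level was that of the library labelled REPAIR 7, CON 11 had 35.9 CPM, and the log2 fold change of REPAIR over ACLT was -0.16 (SE 0.17) with all 23 libraries and -0.099 without the library labelled REPAIR 7. Both transcripts were chosen with earlier results known. The labels were kept as given, and values without the library labelled REPAIR 7 stand beside the main results below.

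Library totals ran from 11927583 to 18404485 counts in REPAIR and from 8211346 to 19992966 in ACLT. The REPAIR mean was 3659330 counts higher (two-sided permutation test with 100000 resamples, p = 0.0040, adjusted p = 0.028 over 7 measures), and 3936400 higher without the library labelled REPAIR 7. Detected transcripts numbered 27033 to 29593 in REPAIR and 25241 to 29271 in ACLT, and the REPAIR mean was 755 higher (adjusted p = 0.20 in the same permutation test), and 661 higher without the library labelled REPAIR 7. The 10 most abundant transcripts took 14.4 to 30.2% of counts in REPAIR and 16.9 to 26.2% in ACLT. The fragment length, implied by the deposited effective transcript lengths and not measured, was 191 to 204 and 180 to 213 bases. Neither measure passed the same permutation test (adjusted p = 0.94 for both). As a check of the tissue, 162 transcripts at least 64-fold higher in CON cartilage than in CON synovium took 17.3 to 35.2% of counts in CON cartilage, and 0.017 to 0.11% in the 23 libraries.

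Between REPAIR and ACLT synovium, none of the 24533 transcripts tested passed an adjusted p of 0.05 in edgeR's quasi-likelihood test (0 called, 0%). DESeq2 and limma-voom also called 0. At an unadjusted p under 0.05, edgeR counted 473 transcripts (1.93%), 297 higher in REPAIR (1.21%) and 176 lower (0.717%), DESeq2 622 and limma-voom 796. Each is below the 5% expected of a test whose p-values are evenly spread. Without the library labelled REPAIR 7, 0 of 24262 were called by edgeR and by limma-voom, and edgeR's unadjusted count was 446 (1.84%), 283 of them higher. The fold changes centred near 0, with quartiles of -0.11 and 0.13 and a median of 0.0077 on the log2 scale. No transcript separated the groups, as the REPAIR and ACLT ranges overlapped in all 24533.

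**Figure D2:**
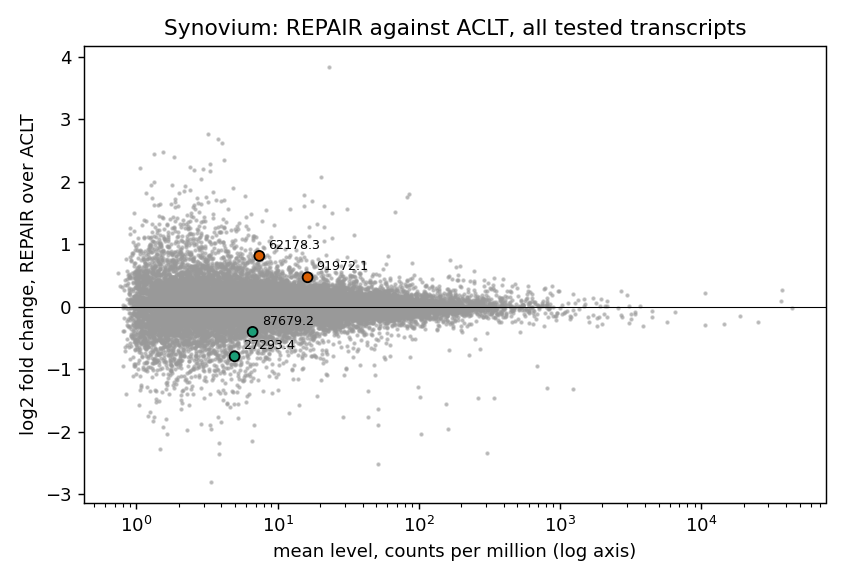
Log2 fold change of REPAIR over ACLT (vertical axis) against mean level in CPM (log horizontal axis) for the 24533 tested transcripts, with the 2 transcripts of smallest p in each direction marked by the ends of their identifiers, orange higher and green lower in REPAIR. The cloud is centred on 0 and narrows with level, and none of its points passed the adjusted threshold.

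The intervals show how far a difference could lie at this spread. For 16821 transcripts (68.6%), the 95% limma-voom interval of the REPAIR to ACLT ratio lay within 2-fold either way, and the share was 69.0% without the library labelled REPAIR 7. Within 1.5-fold it was 50.7% and within 4-fold 81.0%. The share within 2-fold rose with level, from 30.5% of the 6134 transcripts at 0.74 to 4.10 CPM to 94.4% of the 6133 above 26.7 CPM. The median half-width of the interval was 1.20 on the log2 scale in the first of these sets and 0.25 in the second. For 4659 transcripts a 4-fold difference in one direction or the other was not excluded.

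**Figure D3:**
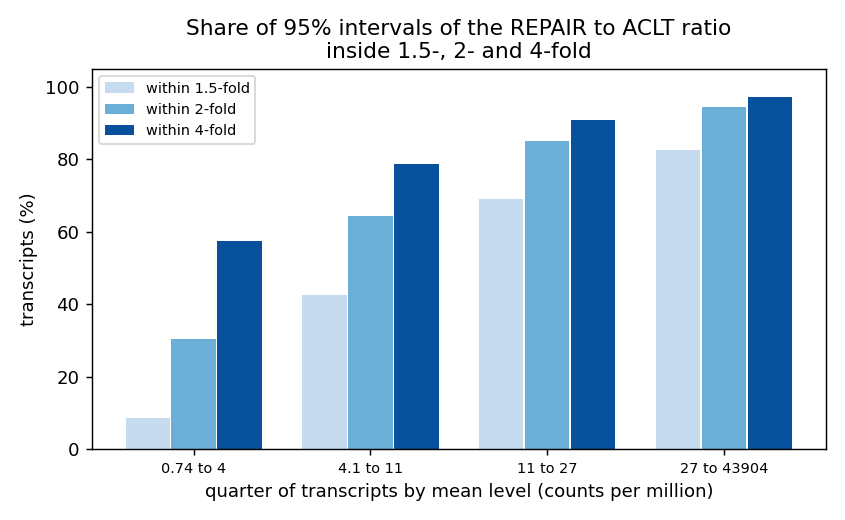
Percentage of transcripts (vertical axis) whose 95% interval of the REPAIR to ACLT ratio lies within 1.5-, 2- or 4-fold, by mean level in CPM, in 4 sets of equal size (horizontal axis). The 2-fold share climbs from 30.5 to 94.4%.

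The most abundant transcripts of the tissue were measured with wide spread between knees. Fold changes in this paragraph are from edgeR and intervals from limma-voom, so an interval need not centre on its fold change. The first of them (8349 bases) took 1.12 to 7.24% of counts across the 23 libraries and had a log2 fold change of -0.013 (95% interval -0.55 to 0.65). A second (8166 bases) took 1.52 to 6.56% and had a log2 fold change of 0.10 (-0.42 to 0.65). The third (1567 bases) varied most, from 0.38 to 12.0% of counts, with an interval of -0.60 to 1.49. All of the 10 most abundant had an unadjusted p of 0.33 or more in edgeR, and of 0.35 or more without the library labelled REPAIR 7.

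Spread within groups was as large as the distance between them. The median root mean square distance between libraries, in log2 CPM, was 1.45 within REPAIR and 1.56 within ACLT, and the median between the groups lay between these values. Group took 4.45% of the variance between the 23 libraries (permutation test with 100000 resamples, p = 0.55), and 4.54% without the library labelled REPAIR 7 (p = 0.72 in the same permutation test). Principal components were computed on the 500 transcripts of highest variance. Component 1 held 11.5% of variance, with REPAIR scores of -26.7 to 22.8 inside the ACLT scores of -41.9 to 42.7. Without the library labelled REPAIR 7 the scores were -26.6 to 22.6 and -40.5 to 43.7. ACLT 11 stood farthest from the other libraries, with a median distance of 1.88, and it had the fewest detected transcripts. The median SD of a transcript in log2 CPM was 0.45 in REPAIR and 0.48 in ACLT, and without the library labelled REPAIR 7 it was 0.44 in REPAIR.

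The 2 transcripts of smallest p in each direction, among those reaching a mean of 1 CPM in either group, were read library by library. ENSSSCT00000091972.1 (5004 bases) ran from 15.1 to 25.6 CPM in REPAIR with a median of 18.2, and from 10.0 to 17.2 CPM in ACLT with a median of 13.3. All 12 REPAIR libraries lay above the ACLT median, and 5 of them lay inside the ACLT range. Its log2 fold change was 0.47 (SE 0.11, unadjusted p = 0.00029 and adjusted p = 0.999995 in edgeR). ENSSSCT00000062178.3 (3700 bases) ran from 5.65 to 16.9 CPM in REPAIR, median 8.58, and from 3.21 to 8.29 CPM in ACLT, median 4.31. Again all 12 REPAIR libraries lay above the ACLT median, with a log2 fold change of 0.81 (SE 0.20, unadjusted p = 0.00044 in edgeR).

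In the other direction, ENSSSCT00000027293.4 (2131 bases) ran from 2.27 to 6.41 CPM in REPAIR, median 3.38, and from 3.70 to 10.7 CPM in ACLT, median 5.71. One REPAIR library lay above the ACLT median, and the log2 fold change was -0.79 (SE 0.21, unadjusted p = 0.00090 in edgeR). ENSSSCT00000087679.2 (4718 bases) ran from 4.14 to 6.75 CPM in REPAIR, median 5.99, and from 5.53 to 9.62 CPM in ACLT, median 7.61. No REPAIR library lay above the ACLT median, and the log2 fold change was -0.40 (SE 0.11, unadjusted p = 0.0011 in edgeR). For each of the 4 the groups overlapped and the adjusted p was 0.999995, so none is a call. Without the library labelled REPAIR 7 their log2 fold changes were 0.46, 0.82, -0.77 and -0.41, in the order given. Their RECON medians were 14.6, 8.43, 3.78 and 6.29 CPM and their CON medians 16.4, 7.13, 6.47 and 6.71 CPM, in the same order.

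**Figure D4:**
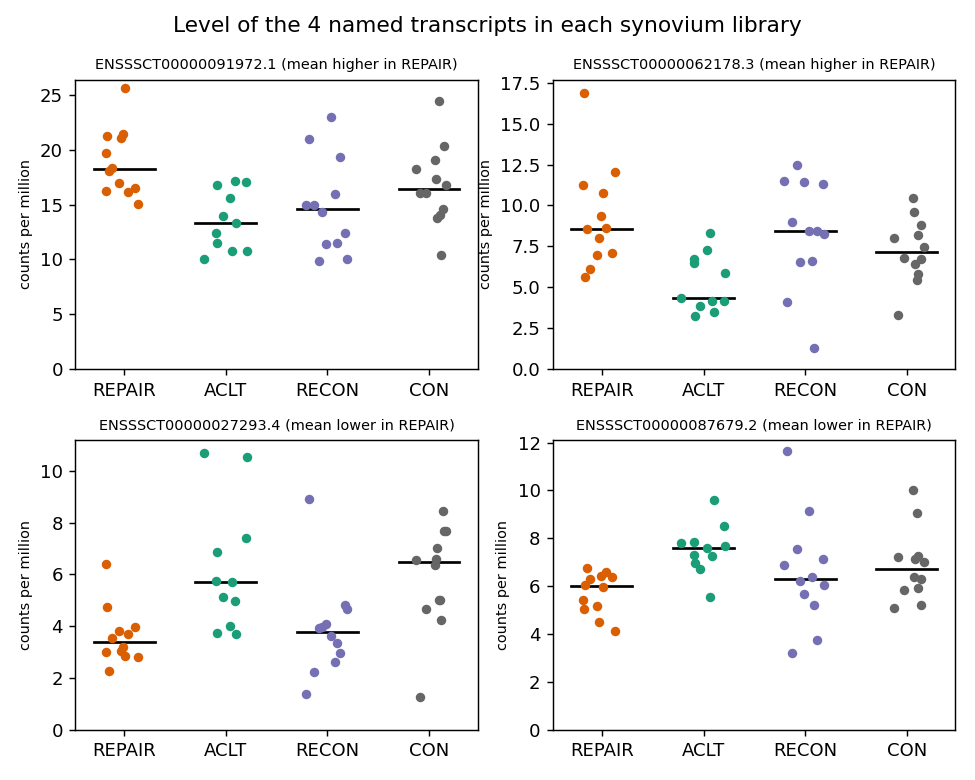
Level in CPM (vertical axes, from 0) of the 4 named transcripts in each synovium library of REPAIR, ACLT, RECON and CON (horizontal axes), with bars at group medians. REPAIR and ACLT points overlap in each panel, and none of the 4 passed the adjusted threshold.

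Among the 20 transcripts of smallest p, 11 were higher and 9 lower in REPAIR, from 1224 to 6880 bases long, with unadjusted p from 0.00029 to 0.0033. Without the library labelled REPAIR 7 all 20 had the same sign and an unadjusted p under 0.05. The 20 were chosen by p in the 23 libraries, and this fit uses 22 of those, so that is a description only. The third of the 20 (1392 bases) had a log2 fold change of 2.75, and its level came from few knees: REPAIR 3 had 22.6 CPM, REPAIR 1 had 22.2 and REPAIR 11 had 5.80, against a REPAIR median of 1.16 and an ACLT maximum of 1.13 CPM. Over all tested transcripts, 428 had a fold change beyond 2-fold, 243 of them higher in REPAIR, and 288 of the 428 lay at 4.10 CPM or less. The highest log2 fold change, 3.84 for a transcript of 879 bases, came from the library labelled REPAIR 7, which had 487 CPM where the next library had 8.05. The lowest was -2.81 for a transcript of 4224 bases, whose highest level, 16.9 CPM, was in ACLT 6.

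Fold changes drifted slightly with transcript length. The median log2 fold change was 0.050 in 1411 transcripts of up to 1000 bases and -0.016 in 8977 transcripts over 4000 bases. With an offset for effective length the medians were 0.051 and -0.013, and without the library labelled REPAIR 7 they were 0.061 and -0.016.

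To place the 2 groups between operated and intact synovium, transcripts were sorted by RECON against CON, which uses none of the 23 libraries. The sort is not independent of them, since some CON knees are contralateral knees of REPAIR and ACLT animals. It also holds the library labelled CON 11, which matched the cartilage of REPAIR 7. That contrast called 4753 of 24468 (19.4%), 2355 higher and 2398 lower in RECON. The 2352 higher transcripts that could be tested had a median log2 fold change of REPAIR over ACLT of -0.041, with 5 higher and 28 lower at an unadjusted p under 0.05. The 2359 lower transcripts had a median of 0.039, with 50 higher and 9 lower, beside a median of 0.0079 and 295 higher and 175 lower over all 23821. Without the library labelled REPAIR 7 the medians were -0.013 and 0.010. At an unadjusted p under 0.05, 11 were higher and 14 lower in the first class, and 37 higher and 15 lower in the second. Over all 23667 transcripts the median was then 0.010, the same as in the second class, with 282 higher and 163 lower. With CON 11 also left out of the sort the medians were -0.0033 and 0.0026, beside 0.00998 over all. In narrower classes, of 382 and 345 transcripts at an adjusted p under 0.01 and at least 2-fold, the medians were -0.14 and 0.18 with all 23 libraries, and -0.077 and 0.078 without the library labelled REPAIR 7.

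Library levels gave the same picture. With CON 11 left out of the sort and a 2-fold minimum, 641 transcripts were higher and 582 lower in RECON, and the mean log2 CPM of the first minus that of the second was taken for each library. This difference had a median of 1.67 in the other 11 REPAIR libraries, which spanned 0.76 to 3.12. The ACLT median was 1.86, with a span of 0.92 to 3.11. RECON libraries spanned 1.68 to 3.33 around a median of 2.65, and the other 11 CON libraries spanned -1.67 to -0.23. The library labelled REPAIR 7 had -0.53, inside the CON range, and that labelled CON 11 had 2.07, inside the ACLT and REPAIR ranges. Apart from these, the REPAIR and ACLT libraries all lay above the CON libraries and overlapped each other over most of their range. RECON and CON levels chose the lists, so they are descriptions only.

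**Figure D5:**
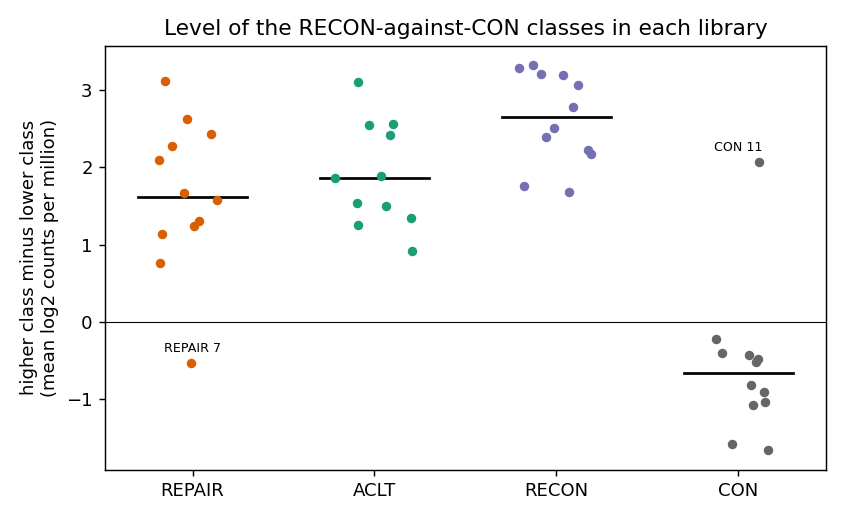
Mean log2 CPM of 641 transcripts higher in RECON than in CON minus that of 582 lower ones (vertical axis) in each synovium library by group (horizontal axis), with bars at group medians. REPAIR and ACLT libraries share most of their range, and REPAIR 7 and CON 11 lie apart from their groups.

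Each group was also set against CON in 1 edgeR fit of the 47 listed synovium libraries. REPAIR against ACLT again gave 0 of 27861, with 607 at an unadjusted p under 0.05. ACLT against CON called 2400 transcripts (8.61%) and REPAIR against CON 1919 (6.89%). Without the libraries labelled REPAIR 7 and CON 11 the counts were 3359 for ACLT and 3450 for REPAIR, of 27679 tested. So the order of the 2 counts turned with those libraries, and both counts rose, that of REPAIR by more. Both contrasts share the CON libraries. CON knees are contralateral knees of operated animals, so each contrast mixes knees of the same and of different animals. Neither this fit nor the RECON against CON sort has a term for animal, and all knees were treated as independent.

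Whether the REPAIR to ACLT difference in synovium was unlike that in cartilage was tested as an interaction over 46 libraries. edgeR called 0 of 27764 transcripts (0%), with 1020 at an unadjusted p under 0.05, and limma-voom called 0, with 1107. The main edgeR fit had no term for knee, although cartilage and synovium of the same knee both entered it. With the knee as a block, 0 were called and 1142 had an unadjusted p under 0.05. Cartilage alone gave 0 of 23226 in edgeR, with 1255 at an unadjusted p under 0.05. ENSSSCT00000062178.3 had a log2 fold change of 0.81 in synovium and -0.20 (SE 0.16) in cartilage, an interaction of 1.01 (SE 0.26, adjusted p = 0.46 in edgeR). The other 3 named transcripts had the same sign in both tissues.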

How the data were processed

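Per the labels and the study's methods, reads of rRNA-depleted libraries (KAPA kit, pooled on 1 flow cell) were quantified with Salmon 1.8.0 against Sscrofa11.1. The authors deposited expected counts for 46295 transcripts per library, unnormalized, beside TPM. The deposited TPM were used only for a mean level kept in the tables. Counts were rounded. Salmon divides reads between similar transcripts, and that uncertainty was not used.

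Transcripts passing filterByExpr (minimum count 10) were tested in edgeR 4.0.16 (TMM, quasi-likelihood, Benjamini-Hochberg adjusted p under 0.05) in R 4.3.3. DESeq2 1.42.0 and limma 3.58.1 were alternatives, and the fits were tested on simulated data. Printed CPM are TMM-scaled over 47 synovium libraries, except where stated. P-values measure spread between knees. The named transcripts were the 2 of smallest p in each direction with at least 1 CPM in a group, and 2 further transcripts were fixed by identifier. Members, lists and rules were chosen with earlier results of these data known. Pairs of libraries within REPAIR or ACLT differed by a chi-square of at least 27.7 per degree of freedom, so none was a duplicate. Cartilage and synovium of a knee were paired by the group and number in their labels, and the block of knees changed no call. The deviations of the 2 tissues of a knee correlated by 0.011 to 0.11 over 23 knees. The range was the same over 22 knees without REPAIR 7, so it does not show whether a pair is right. Leaving out REPAIR 7 and CON 11, thinning counts, and the matching of tissues were added after seeing the data.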

Additional observations from a re-analysis of the deposited data

How the results depend on the processing

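REPAIR against ACLT synovium gave 0 called transcripts under each alternative run except 1. These were DESeq2 size factors, library totals alone, both other filters, DESeq2, limma-voom, an offset for effective length, 2 RUVr factors, the 47-library fit, ACLT 12 added, RNA integrity number or sex as a covariate, thinning to 8211317 counts, and each of 23 fits without 1 library (0 to 0 called, 406 to 698 at an unadjusted p under 0.05). The exception was the fit of 94 libraries of both tissues, with 3 called, and 1 without the REPAIR 7 synovium library. The unadjusted count was 420 with totals alone, 1016 with RUVr factors and 1947 with the widest filter. With the replicate number as a replicate block the count was 0 (555 unadjusted). Numbers do not pair animals between these groups, since the groups hold different animals. The deviations of same-numbered libraries correlated by -0.060 to 0.15, and 2 of 11 REPAIR libraries correlated best with their own number. The interaction gave 0 under each of 5 alternatives, 0 with the knee as a replicate block (1142 unadjusted) and 0 without REPAIR 7. The study reported differentially expressed genes for this interaction, using DESeq2 with RUVSeq. That method was not among the 5 alternatives, so its result was not tested here. The class medians ran from -0.069 to -0.013 (higher class) and from 0.010 to 0.066 (lower class) over the fits without 1 library, the values nearest 0 being those without REPAIR 7. With classes at an adjusted p under 0.01 and at least 2-fold they were -0.14 and 0.18, and -0.077 and 0.078 without REPAIR 7. The 4 named transcripts kept their sign in each alternative, and their lowest adjusted p was 0.11, in edgeR. They were chosen by p in these libraries, so the kept sign is a description only. For transcripts at 0.74 to 4.10 CPM, 30.5% of intervals lay within 2-fold, so a 2-fold difference was not excluded for the others.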

Other observations

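The 3 transcripts called only in the fit of 94 libraries did not pass the filter of the 23-library test, and are described after their values were seen. The first (3113 bases) had counts in 7 of 12 REPAIR synovium libraries, each over 1 CPM, and was at 0 in all 11 ACLT synovium libraries. The highest of the 7, at 4.66 CPM, was the library labelled REPAIR 7. It had counts in 10 of 12 CON and 5 of 12 RECON synovium libraries, and in all 11 ACLT cartilage libraries. In the 23 libraries with the widest filter its adjusted p was 0.45 in edgeR. The second (1517 bases) was at 9.54 CPM in REPAIR 5 and 5.73 in REPAIR 7, and at or below 0.35 in the other 21 libraries. The third (6567 bases) was at 5.25 CPM in ACLT 6 and 2.34 in ACLT 8, and at 0 in the other 21. Without the REPAIR 7 synovium library the adjusted p of the 3 in the 94-library fit was 0.012, 0.11 and 0.099.

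Over all transcripts in the files, 3 were at 0 in every ACLT library and at 1 CPM or more in at least 7 REPAIR libraries, and 0 showed the reverse. At a minimum of 3 libraries the counts were 73 and 49. These counts set 12 deeper REPAIR libraries against 11 shallower ACLT libraries. On CPM without TMM scaling, the 23 libraries gave 72 and 47 at a minimum of 3. The next counts are on that scale. Without the library labelled REPAIR 7, 11 against 11, they were 1 and 1 at a minimum of 7 libraries and 55 and 61 at a minimum of 3. After thinning to equal totals they were 1 and 1, and 54 and 62. Among the 24533 tested transcripts, 8 had most of their summed level in 1 library, 6 of them in REPAIR 5 and 2 in the library labelled REPAIR 7.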
